A study of Rattus norvegicus with 3 samples.

Results

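Long regions of captured methylated DNA, 2000 bp or more from end to end, were described in livers of newborn rats whose dams were fed a low protein diet (MLP), a low protein diet with added folic acid (MLP-F) or a control diet (C). The members were selected on the length of each listed region on chromosomes 1 to 20. They numbered 770 of 90102 listed regions. The MLP vs. C list held 245 of 34126 regions, the MLP vs. MLP-F list 419 of 31671, and the MLP-F vs. C list 106 of 24305. These counts are 0.718%, 1.32% and 0.436% of the lists, and the rule itself fixed them. Joined where they overlapped, the 770 regions made 611 loci.

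All animals were male Wistar pups on postnatal day 1. The MLP diet held 9% casein and 1 mg/kg folic acid, the MLP-F diet 9% and 5 mg/kg, and the C diet 18% and 1 mg/kg. Each group was 1 litter and 1 library of pooled liver DNA, from 6 animals by the sample labels and 8 by the methods, so a litter cannot be told apart from its diet and the diets have no replicate check. The study's own account gives MLP the deepest library and C the shallowest.

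In mammals the methyl group sits mostly on the C of a CG pair. Most of the genome holds few such pairs and they are methylated, while tandem repeats, satellites and the borders of CpG-rich sequence can hold many of them close together. The MBD protein domain binds methylated CG pairs, so captured fragments come from places that are both rich in CG and methylated. Whole liver of a newborn holds hepatocytes, blood-forming cells and others, and a change in the mix of cells cannot be told apart from a change of methylation within a cell. MACS, a peak caller, marks places where reads pile up in a treatment library and scores each against a control library. Here the treatment library was MLP in both MLP lists (MLP vs. C, MLP vs. MLP-F), and MLP-F in the MLP-F vs. C list. Each list therefore holds regions higher in the group named before "vs.", and regions lower in that group were not analysed here. The score is 10 times the −log10 of the MACS p, so a step of 10 in the score is a factor of 10 in p. Length and score come from the same call, so the score of a long region is a description with no test. All intervals are 95% Wilson intervals and cover counting error only.

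The only long region with designed primers in the study's supplements is the intronic region of Sfmbt1 (chromosome 16, 6176260 to 6178343, rn4), a gene for a chromatin protein with MBT repeats that bind histone tails. The primers are shown because they give the only sequence tied to a long region here. The outcome of the study's bisulphite assay at this region is not reported here, and that primers exist lends no support to its score. They were made for bisulphite-converted DNA, in which C without a methyl group is read as T.

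Sfmbt1 forward: agtttgttggttggattagatag

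Sfmbt1 reverse: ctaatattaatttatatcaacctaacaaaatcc

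The forward primer has 23 bases with 0 C and 8 G, and the reverse primer has 33 bases with 7 C and 0 G. Both have 0 CG pairs as written. No other sequence of the long regions was read, since no rn4 genome was used here.

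Most long regions were only a little longer than the limit. In MLP vs. C the median length was 2263 bp, with quartiles at 2094 and 2573 bp. For MLP vs. MLP-F the median was 2308 bp and the quartiles were 2114 and 2672 bp. For MLP-F vs. C it was 2412 bp, with quartiles at 2188 and 2808 bp. The shorter regions had medians of 667 bp in MLP vs. C, 718 bp in MLP vs. MLP-F and 654 bp in MLP-F vs. C. Regions of 3000 bp or more numbered 36, 71 and 20, and those of 5000 bp or more 2, 9 and 5, in the order of lists given first. Though few, the long regions covered 598287 bp in MLP vs. C, 2.39% of the sequence listed there. They covered 1075630 bp in MLP vs. MLP-F, which was 4.26%, and 289763 bp in MLP-F vs. C, which was 1.70%.

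Regions on both sides of the limit overlapped in score. The 11 MLP vs. C regions between 2000 and 2006 bp had scores of 50.2 to 204.69 with a median of 90.2, and the 9 that fell short by up to 10 bp had scores of 55.5 to 308.1 with a median of 117.53. Of MLP vs. MLP-F regions the 11 between 2000 and 2009 bp ran between 50.3 and 961.26 with a median of 177.12, and the 6 that fell short by up to 10 bp between 52.5 and 431.9 with a median of 292.6. The 2 MLP-F vs. C regions just inside, of 2000 and 2002 bp, scored 162.19 and 68.2, and the 1 just outside scored 117.72. The limit of 2000 bp is therefore a point on a continuous range of lengths, not a gap between kinds of region.

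On chromosomes 1 to 20 the longest region of the 3 lists was 12223 bp on chromosome 7 (114203837 to 114216059), with a score of 439.13 in MLP vs. MLP-F. It was absent from both other lists. The next in that list were 8876 bp on chromosome 6 (137765578 to 137774453, score 112.95), 6719 bp on chromosome 7 (8178298 to 8185016, score 217.43) and 6620 bp on chromosome 20 (19368440 to 19375059, score 62.8). None of these 4 was listed in MLP vs. C, where the longest region was 5336 bp on chromosome 18 (35797590 to 35802925). That region was listed in both MLP lists, with a score of 168.66 in MLP vs. MLP-F and 149.59 in MLP vs. C. The longest regions of MLP-F vs. C were 8479 bp on chromosome 12 (4360717 to 4369195, score 85.1), 6383 bp on chromosome 14 (49295231 to 49301613, score 215.96) and 5765 bp on chromosome 1 (33120166 to 33125930, score 98.8). These 3 were in neither MLP list. Great length did not require a high score. The tenth longest MLP vs. MLP-F region, 4804 bp on chromosome 7 (73710852 to 73715655), scored 51.7, just above the floor of the list.

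Long regions had higher scores than shorter ones in each list. The median score was 113 for long against 77.0 for shorter regions in MLP vs. C, 143 against 81.0 in MLP vs. MLP-F, and 93.2 against 69.3 in MLP-F vs. C. The upper quartiles stood further apart, at 188 against 110 in MLP vs. C, 289 against 123 in MLP vs. MLP-F and 179 against 90.5 in MLP-F vs. C. The rise was gradual over length. Over bands of length under 500 bp and starting at 500, 1000, 2000 and 3000 bp, the median in MLP vs. MLP-F was 71.6, 79.6, 103, 138 and 217. In MLP vs. C the same bands gave 72.1, 76.6, 89.2, 109 and 124. In MLP-F vs. C they gave 70.5, 67.7, 77.1, 86.6 and 126, with a dip in the band that starts at 500 bp. Long regions still spread over the whole range of scores, and 27 in MLP vs. C, 39 in MLP vs. MLP-F and 18 in MLP-F vs. C scored under 60. Per 1000 bp of length the order turned round: the median was 49.1 for long against 123 for shorter regions in MLP vs. C, 61.8 against 124 in MLP vs. MLP-F and 36.9 against 111 in MLP-F vs. C. Among the long regions, length and score were only weakly related across regions (Spearman's rho 0.16 over 245 regions, 0.13 over 419 and 0.14 over 106, in the same order of lists), and these points share their libraries.

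**Figure D1:**
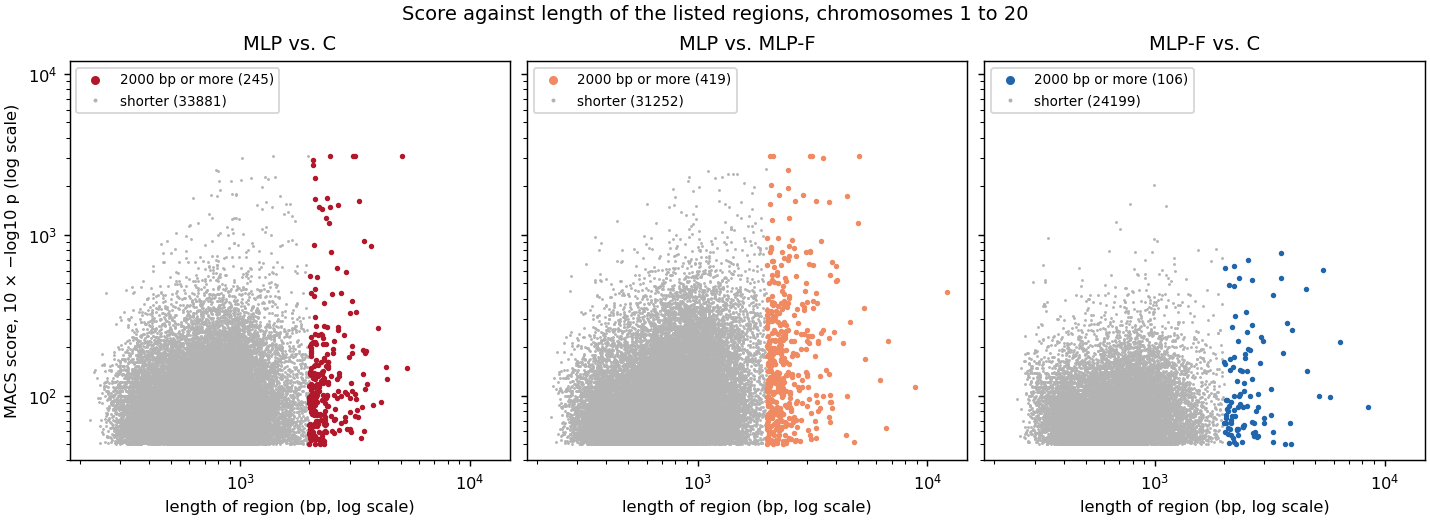
MACS score (vertical, log scale) against length in bp (horizontal, log scale) of every listed region on chromosomes 1 to 20, 1 panel per list; coloured points are regions of 2000 bp or more and grey points the shorter ones. Coloured points fill the range of scores from the floor at 50 up to 3100 in both MLP lists and up to 765.47 in MLP-F vs. C.

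High scores were more frequent among long regions. A score of 500 or more was held by 24 of 245 long regions in MLP vs. C (9.80%, interval 6.67 to 14.2%), against 174 of 33881 shorter ones (0.514%), and by 0.58% of the whole list. Among MLP vs. MLP-F regions it was held by 58 of 419 (13.8%, interval 10.9 to 17.5%), against 302 of 31252 shorter ones (0.966%), and by 1.14% of the whole list. Among MLP-F vs. C regions it was held by 8 of 106 (7.55%, interval 3.87 to 14.2%), against 37 of 24199 shorter ones (0.153%), and by 0.185% of the whole list. Most long regions scored under 500 in each list, though their median lay above the upper quartile of the shorter ones. Scores of 1000 or more were held by 16 long regions in MLP vs. C, 19 in MLP vs. MLP-F and 0 in MLP-F vs. C, where the interval for 0 of 106 reaches 3.50%. Of the 10 highest scores of each list, long regions held 6 in MLP vs. C, 7 in MLP vs. MLP-F and 0 in MLP-F vs. C.

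A score of 3100 was the ceiling and was shared by 5 regions in each MLP list. In MLP vs. MLP-F all 5 were long, and in MLP vs. C 3 were. The 3 that reached it in both lists were annotated to RGD1306565, Acadm and Mlph. Tied scores at a ceiling cannot be ranked, and they may differ in reads.

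Names below are those of the study's own annotation of its selected regions. Since the study chose those regions by their MACS statistics, the scores of named loci are not a sample of all long regions. Of the 611 loci, 28 had an entry there and 23 of these a gene name. All 28 came from the MLP lists, as they had to, since that annotation covers only those lists. A locus long in MLP-F vs. C alone thus could have no entry, and its lack of a name says nothing about nearby genes. RefSeq (GRCr8), used for names only, gave current symbols for 19, among them Map3k5 for RGD1306565 and Tmem259 for Mbrl. That annotation places each entry in an intron of a gene, upstream of it or downstream of it.

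The named loci are given by what their genes do, an order chosen for reading and not by score. RGD1306565, or Map3k5, encodes ASK1, a kinase of the stress-activated MAP kinase cascade. Its intronic region of 5062 bp (chromosome 1, 15324363 to 15329424) scored 3100 in MLP vs. C and 3100 in MLP vs. MLP-F, and a piece of 348 bp at the same place scored 183.84 in MLP-F vs. C. Acadm encodes the medium-chain acyl-CoA dehydrogenase that begins the oxidation of medium-chain fatty acids in liver mitochondria. A region of 3154 bp downstream of it (chromosome 2, 251899516 to 251902669) scored 3100 in both MLP lists, and 1386 bp there scored 133.61 in MLP-F vs. C. Both loci were thus listed in all 3 comparisons, but as long regions only where MLP was the library scored. Near the Acadm region, MLP-F vs. C held a separate long region of 2409 bp (chromosome 2, 251883332 to 251885740) with a score of 64.05. Ndufa8, a subunit of respiratory complex I, had a region of 2323 bp downstream (chromosome 3, 15145705 to 15148027) with a score of 128.87 in MLP vs. C. It was not listed in MLP vs. MLP-F, and 420 bp of it scored 104.42 in MLP-F vs. C.

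At Sfmbt1 the region of 2084 bp whose primers are given above scored 2030.01 in MLP vs. MLP-F and 2904.75 in MLP vs. C, while 1605 bp scored 61.1 in MLP-F vs. C. Smyd3, a lysine methyltransferase, had a region of 2065 bp downstream (chromosome 13, 94641322 to 94643386) that was listed in MLP vs. C alone, with a score of 129.91. Camta1, a calmodulin-binding transcription activator, had an intronic region of 2250 bp (chromosome 5, 168290574 to 168292823) that scored 285.88 in MLP vs. MLP-F and 124.17 in MLP vs. C. Ppp2r5c, which directs protein phosphatase 2A to its substrates, had an intronic region (chromosome 6, 135272898 to 135275160) with scores of 1757.64 in MLP vs. MLP-F and 1439.21 in MLP vs. C. Neither Ppp2r5c nor Camta1 was listed in MLP-F vs. C.

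Sec23b, a coat protein of vesicles that leave the endoplasmic reticulum, had an intronic region (chromosome 3, 133138572 to 133140689) with scores of 689.46 in MLP vs. MLP-F and 1675.58 in MLP vs. C, and 161.83 in MLP-F vs. C over 1185 bp. Atl1, a GTPase that joins tubules of the endoplasmic reticulum, had one (chromosome 6, 92016720 to 92019185) with 2527.83 in MLP vs. MLP-F and 1487.2 in MLP vs. C. Mlph, which links melanosomes to their motor, had a region downstream (chromosome 9, 90088630 to 90091720) at 3100 in both. Vti1a, a SNARE of the Golgi and endosomes, had an intronic region (chromosome 1, 261708399 to 261710471) listed in MLP vs. MLP-F alone, with a score of 1550.79. Mbrl, or Tmem259, a membrane protein of the endoplasmic reticulum, had a region of 4473 bp downstream (chromosome 7, 11241190 to 11245662) with a score of 1732.62 in MLP vs. MLP-F alone. Of these 5 intervals, those of Sec23b, Atl1 and Mlph were listed against both C and MLP-F, and those of Vti1a and Mbrl against MLP-F only. This holds for the intervals given and not for the genes, since the study also names Vti1a for a region in MLP vs. C.

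Kcnab2, a beta subunit of voltage-gated potassium channels, had an intronic region (chromosome 5, 169691349 to 169693707) with a score of 482.16 in MLP vs. MLP-F and 1267.96 in MLP vs. C. Nhlrc2, which carries NHL repeats, had one (chromosome 1, 262882420 to 262884806) with 425.83 in MLP vs. MLP-F, 1691.79 in MLP vs. C and 87.3 in MLP-F vs. C. Surf6, a nucleolar protein of ribosome assembly, had one (chromosome 3, 5790883 to 5793008) with 3100 in MLP vs. MLP-F and 2263.52 in MLP vs. C. Fam83b scored 1624.3 in both MLP lists. Rnf150, a RING finger protein, had an intronic region of 3731 bp (chromosome 19, 26948889 to 26952619) with 1589.72 in MLP vs. MLP-F and 848.36 in MLP vs. C. LOC689904 (chromosome 9, 30211943 to 30214018) scored 3100 in MLP vs. MLP-F and 2731.96 in MLP vs. C. Lower scores, between 124 and 129 in MLP vs. C, were held by Spata16, SNORA17, Tmem63b and LOC501946 beside Camta1 and Ndufa8. Of the 21 annotated loci that were long in both MLP lists, 11 scored higher against MLP-F, 6 higher against C and 4 the same.

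**Figure D2:**
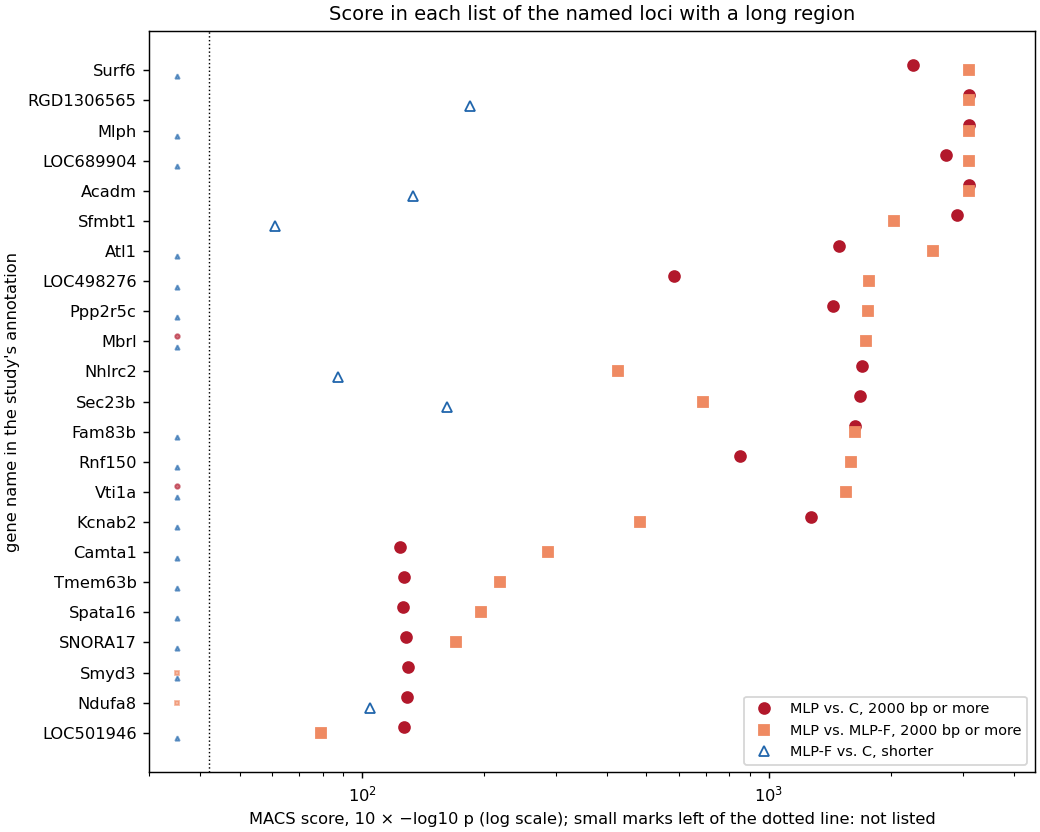
MACS score (horizontal, log scale) in each list for the 23 loci with a gene name, ordered by their highest score; filled marks are regions of 2000 bp or more, open triangles shorter regions of MLP-F vs. C, and small marks left of the dotted line loci not listed. The open triangles lie between 61.1 and 183.84, below both MLP scores at RGD1306565, Acadm, Sfmbt1, Sec23b and Nhlrc2.

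The study's annotation also gives the repeats found nearest to each of its regions, which need not lie within them. It gives a tandem repeat at RGD1306565, Acadm, Mlph, Sfmbt1, Surf6, LOC689904, Atl1, Ppp2r5c, Nhlrc2, Sec23b, Fam83b, Kcnab2, Camta1, Rnf150, Vti1a, LOC498276, Smyd3 and Ndufa8. Its label for a tandem repeat, trf, is absent at Spata16, SNORA17, Tmem63b, LOC501946 and Mbrl. Of these, SNORA17 has a repeat named RatSatRep2, which was not counted, and LOC501946 has no repeat entry at all. In the study's annotation of MLP vs. C it was named at 9 of 9 long and 26 of 27 shorter regions with a score of 1000 or more. Among those with lower scores it was named at 5 of 9 long and 265 of 1100 shorter ones. These 9 long regions all scored between 123.37 and 129.91 in MLP vs. C. They therefore do not stand for the range up to 1000, and no trend with score can be read from them. Loci annotated in MLP vs. MLP-F only are not in the counts for MLP vs. C. In the annotation of MLP vs. MLP-F, where every region scored 1000 or more, a tandem repeat was named at 15 of 16 long and 25 of 26 shorter ones. The repeat unit at RGD1306565 is CACTG and that at Mlph is GAGTG, neither of which holds a CG pair when repeated. At Vti1a the unit CGCTG does hold one, while the unit CTGTG, also named there, does not. LOC498276 is mixed too, with CTCG and TCCG that hold one beside CCTG and TCCA that do not. The unit CCG at Camta1 holds one. A locus with a CG-bearing unit and a locus without one could both score over 1000, as at Vti1a and RGD1306565.

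Spacing differed with length. A long region lay closer to the next region of its own list than a shorter one did, with a median gap of 13105 bp for long against 17984 bp for shorter regions in MLP vs. C, 8095 against 19162.5 bp in MLP vs. MLP-F, and 15460.5 against 23976 bp in MLP-F vs. C. A neighbour within 1 kb was found for 30 of 245 long regions in MLP vs. C (12.2%, interval 8.71 to 16.9%), against 5.47% of shorter ones. In MLP vs. MLP-F it was found for 68 of 419 (16.2%, interval 13.01 to 20.1%), against 6.36%, and in MLP-F vs. C for 12 of 106 (11.3%, interval 6.60 to 18.8%), against 4.42%. In MLP vs. MLP-F the share reached 26.8% (19 of 71) at 3000 bp or more. A gap is measured from edge to edge, so at a given distance between centres a longer region leaves a smaller gap. How much of the difference in spacing comes from length alone was not tested.

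**Figure D3:**
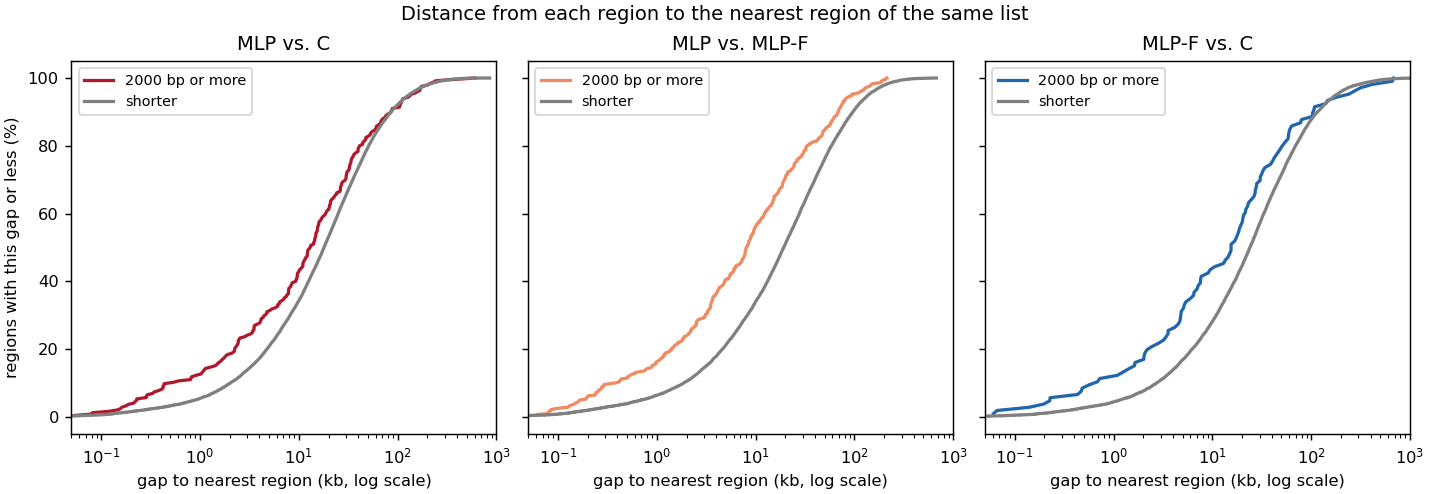
Percent of regions (vertical) whose gap to the nearest region of the same list is no larger than the value on the horizontal axis (kb, log scale); coloured lines are regions of 2000 bp or more and grey lines shorter ones. The coloured line lies to the left of the grey one over most of each panel, with medians of 8095 bp against 19162.5 bp in MLP vs. MLP-F.

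Long regions were usually far from each other all the same. The median gap between a long region and the nearest other long one was 2406050 bp in MLP vs. C, 904976 bp in MLP vs. MLP-F and 4187600 bp in MLP-F vs. C. A long neighbour within 100 kb was found for 27 of 245 (11.02%), 80 of 419 (19.1%) and 21 of 106 (19.8%) in that order. Joined at gaps of up to 100 kb, these made 13, 33 and 9 clusters, of which 1, 8 and 3 held 3 or more long regions.

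The largest cluster lay on chromosome 7 around Mbrl. Between 11159587 and 11486065 the MLP vs. MLP-F list held 7 long regions among 27 regions, with scores of 65.6 to 1732.62. The MLP vs. C list held 21 regions there, of which 1 was long, and MLP-F vs. C held 2, none long. In current RefSeq order the genes beside Tmem259 are Polr2e, Arhgap45, Abca7, Cnn2, Grin3b, Wdr18, Arid3a and Kiss1r, a gene-dense stretch. Over the wider stretch of 4.5 Mb that begins at 8000000, chosen after its values were seen, 19 of 182 MLP vs. MLP-F regions were long (10.4%, interval 6.79 to 15.7%). In the same stretch 4 of 124 were long in MLP vs. C and 1 of 42 in MLP-F vs. C. The 4 in MLP vs. C were also among the 19, and at chromosome 7, 11319088 to 11322282, the scores were 348.77 in MLP vs. MLP-F and 330.32 in MLP vs. C.

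Another cluster lay on chromosome 5 at Kcnab2. Between 169613379 and 169784676 the MLP vs. MLP-F list held 4 long regions, with scores of 98.0, 129.77, 482.16 and 517.6. The last 3 were also long in MLP vs. C, with scores of 97.9, 1267.96 and 262.62, and no region of MLP-F vs. C lay between them. The order of the scores thus differed between the lists: the region at 169780676 to 169784676 was the highest against MLP-F and the Kcnab2 intron the highest against C. Camta1 lies on the same chromosome, at 168290574 to 168292823, with a further long region at 168235339 to 168237438. That one scored 80.5 in MLP vs. MLP-F and 64.8 in MLP vs. C.

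Other clusters were seen in 1 comparison only. On chromosome 6 between 137720502 and 137782241, MLP vs. MLP-F held 4 regions, all long, of 6205, 8876, 3306 and 3090 bp with scores of 125.97, 112.95, 91.5 and 56.8. MLP vs. C held 1 region there and MLP-F vs. C 1, both under 2000 bp. On chromosome 12 between 4360717 and 4411933, MLP-F vs. C held 3 regions, all long, of 8479, 5397 and 3274 bp with scores of 85.1, 600.77 and 421.39, and neither MLP list held any. On chromosome 13 MLP-F vs. C held 3 long regions among 11 between 30427566 and 30482696, with scores of 266.74 to 459.57, where MLP vs. C held 3 shorter ones. On chromosome 18 it held 3 among 6 between 38709551 and 38781455, with scores of 72.4 to 184.72, where the MLP lists held none. On the same chromosome MLP vs. MLP-F held 3 long regions of 2616, 3929 and 5298 bp between 107481 and 240298, with scores of 68.8, 248.96 and 350.16, where MLP vs. C held none and MLP-F vs. C held 2 shorter ones.

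Some clusters were long regions broken by a short gap. On chromosome 17, regions of 2654 and 5014 bp starting at 4280354 and 4283267 lay 259 bp apart, with scores of 1620.81 and 1183.4 in MLP vs. MLP-F. The smaller of them scored 256.57 in MLP vs. C, where the larger was absent. On chromosome 13 near LOC498276, 3 regions of 2891, 2075 and 3444 bp lay 127 and 238 bp apart between 86955273 and 86964047. Their scores in MLP vs. MLP-F were 1767.25, 59.4 and 919.47, and the outer ones scored 585.38 and 916.55 in MLP vs. C. On chromosome 11, regions of 2679 and 2441 bp between 36734437 and 36739979 lay 423 bp apart. They scored 738.32 and 356.7 in MLP vs. MLP-F, and 1534.12 and 1188.38 in MLP vs. C. Both pieces on chromosome 11 scored higher against C, while on chromosome 13 the left piece scored higher against MLP-F and the right piece about the same in both.

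Long regions were found on every chromosome in each list, but unevenly. In MLP vs. C the highest share was on chromosome 10, with 22 of 1825 regions (1.21%, interval 0.797 to 1.82%), against 0.718% of the list, and the largest number on chromosome 1, with 32 of 3511. The MLP vs. MLP-F list had it on chromosome 12, with 30 of 1251 (2.40%, interval 1.68 to 3.40%), followed by chromosome 10 with 35 of 1862 (1.88%), against 1.32% of the list. The MLP-F vs. C list had it on chromosome 12, with 11 of 703 (1.56%, interval 0.876 to 2.78%), followed by chromosome 13 with 13 of 1076 (1.21%), against 0.436% of the list. Chromosome 12 was therefore high in both comparisons that involve MLP-F, with regions higher in MLP in the MLP vs. MLP-F list and higher in MLP-F in the MLP-F vs. C list. In MLP-F vs. C 3 of the 11 on chromosome 12 lay in the cluster described above. Within 2 Mb of either end of the listed sequence lay 8 of 245 long regions in MLP vs. C (3.27%, interval 1.66 to 6.31%), against 2.32% of shorter ones. There were 22 of 419 in MLP vs. MLP-F (5.25%, interval 3.49 to 7.82%), against 2.90%, and 3 of 106 in MLP-F vs. C (2.83%, interval 0.967 to 7.99%), against 2.10%.

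**Figure D4:**
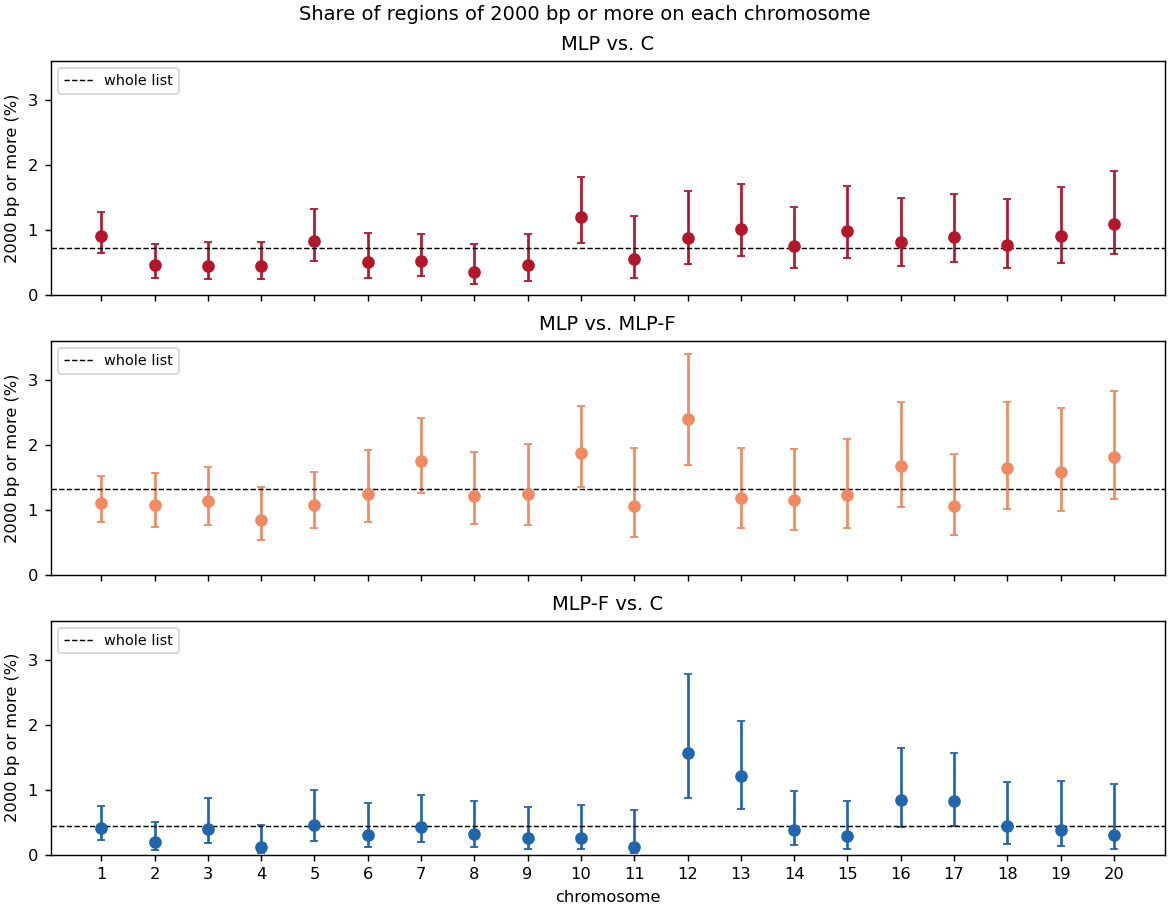
Percent of listed regions that are 2000 bp or more (vertical) on each of chromosomes 1 to 20 (horizontal), 1 panel per list, with 95% Wilson intervals as bars and the whole list as a dashed line. Chromosome 12 is the highest in MLP vs. MLP-F (2.40%) and in MLP-F vs. C (1.56%).

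Sharing between lists was counted as an overlap of at least 1 bp. The lists share a library in each pairing, so a shared region is not a second measurement. The MLP lists share their treatment library, and all 13322 regions common to them had the same start and the same end in both, the 147 long ones included. Their extent is thus given by the MLP library alone, and what differs between those lists is the score against C or MLP-F and whether it passed the limit of the list. Between either MLP list and MLP-F vs. C, 0 regions had the same start and end.

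More long MLP vs. C regions than shorter ones were also listed in MLP vs. MLP-F. These were 147 of 245 (60%, interval 53.8 to 65.9%), against 38.9% of shorter ones and 39% of the whole list. The share grew with length, from 34.8% under 500 bp through 37.0% and 53.1% to 60.3% in the band from 2000 to 3000 bp, and was 58.3% (21 of 36) at 3000 bp or more. Scores also rise with length, and among regions with a score of 100 or more and under 200, a range set after the data were seen, the share was 54.8% for long (interval 44.1 to 65.0%) against 51.3% for shorter regions. Read the other way, the same 147 were 35.1% of the 419 long MLP vs. MLP-F regions (interval 30.7 to 39.8%), against 42.2% of shorter ones and 42.1% of the list. That share fell with length, from 43.5% under 500 bp to 36.2% in the band from 2000 to 3000 bp and 29.6% (21 of 71) at 3000 bp or more. The asymmetry is that of the numbers: MLP vs. MLP-F held 272 long regions that MLP vs. C did not, and MLP vs. C held 98 that MLP vs. MLP-F did not.

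**Figure D5:**
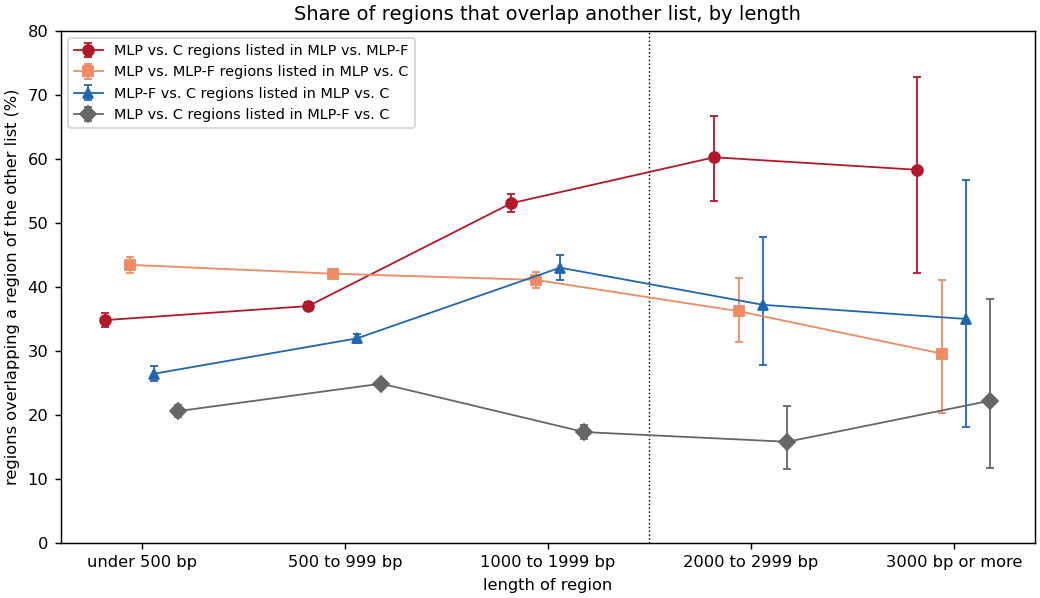
Percent of regions (vertical) of 1 list that overlap a region of another, by length band (horizontal), with 95% Wilson intervals as bars; the dotted line marks 2000 bp. The share of MLP vs. C regions listed in MLP vs. MLP-F is 34.8% under 500 bp and 60.3% in the band from 2000 to 3000 bp, while the share of MLP vs. MLP-F regions listed in MLP vs. C is 43.5% and 36.2%.

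The 147 shared loci held most of the long regions with a score of 500 or more in each MLP list. In MLP vs. C their median score was 132, against 96.6 for the 98 others, and 23 of the 24 long regions with a score of 500 or more were among them. Against MLP-F their median was 210, against 124 for the 272 others, and they held 33 of the 58 with a score of 500 or more. Sharing went with score among shorter regions too. In MLP vs. C 38.9% of all shorter regions were shared, and 51.3% of those with scores of 100 or more and under 200. In MLP vs. MLP-F these shares were 42.2% and 48.9%. The share of shorter regions with a score of 500 or more was not counted. Within the 147, the score was higher in MLP vs. MLP-F at 96, higher in MLP vs. C at 47, and equal at 4. The same split over all 13322 common regions was not counted. Shorter regions also had a higher median score in MLP vs. MLP-F (81.0) than in MLP vs. C (77.0). The C library is the shallower of the controls, and a score depends on the depth of both libraries, so the part of depth in the split of the 147 cannot be told apart from that of diet. The largest shifts toward MLP-F were on chromosome 17 at 4280354 to 4283007 (1620.81 in MLP vs. MLP-F and 256.57 in MLP vs. C) and on chromosome 16 at 19019584 to 19022087 (1270.31 and 60.8). The largest toward C were at Nhlrc2 (425.83 and 1691.79) and on chromosome 18 at 80243760 to 80246225 (1940.77 and 3071.63).

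Strong long regions that were called against 1 control only were mostly calls against MLP-F. Over regions of any length, scores of 500 or more were also more frequent in that list. They were held by 360 of 31671 MLP vs. MLP-F regions (1.14%) and 198 of 34126 MLP vs. C regions (0.58%). The same split among shorter regions was not counted, so it is not shown to be particular to long ones. Of the 272 long MLP vs. MLP-F regions absent from MLP vs. C, 25 scored 500 or more and 4 scored 1000 or more. These 4 were on chromosome 1 at 67550196 to 67553701 (3014.01), at Mbrl (1732.62), at Vti1a (1550.79) and on chromosome 17 at 4283267 to 4288280 (1183.4). Of the 98 long MLP vs. C regions absent from MLP vs. MLP-F, 1 scored 500 or more. It was on chromosome 9 at 93084288 to 93086496, scored 1498, and overlapped a long region of MLP-F vs. C that scored 276.03. At that locus MLP and MLP-F were therefore each listed above C, and MLP was not listed above MLP-F.

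Sharing with the MLP-F vs. C list asks whether a place higher in MLP than in C was also higher in MLP-F than in C. Of the 245 long MLP vs. C regions, 41 overlapped that list (16.7%, interval 12.6 to 21.9%), against 22.8% of shorter ones and 22.7% of the list. Long regions meet others more easily under a rule of 1 bp, and with a reciprocal overlap of 50% the share was 8.98% for long against 20.97% for shorter regions. Of the 106 long MLP-F vs. C regions, 39 overlapped MLP vs. C (36.8%, interval 28.2 to 46.3%), against 31.8% of shorter ones and 31.9% of the list. That direction turned under 3 other rules: the share was 28.3% for long against 30.9% for shorter regions by the centre of the region, 21.7% against 29.4% with a reciprocal overlap of 50%, and 29.2% against 46.8% among scores of 100 or more and under 200. By the 1 bp rule the interval of the long MLP vs. C share ends just below the value of its list, and that of the long MLP-F vs. C share includes the value of its own. Of the 419 long MLP vs. MLP-F regions, 10 overlapped MLP-F vs. C (2.39%, interval 1.30 to 4.34%), against 1.25% of shorter ones and 1.27% of the list. Of the 106 long MLP-F vs. C regions, 2 overlapped MLP vs. MLP-F (1.89%, interval 0.519 to 6.62%), against 1.66% of shorter ones and 1.66% of the list.

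Over the 611 loci, 271 were long in MLP vs. MLP-F and listed nowhere else, 138 were long in both MLP lists and absent from MLP-F vs. C, 67 were long in MLP-F vs. C alone and 66 in MLP vs. C alone. Another 20 were long in MLP vs. C and shorter in MLP-F vs. C, 25 the reverse, and 12 were long in both. A further 9 were long in both MLP lists with a shorter region in MLP-F vs. C, 2 were long in MLP-F vs. C with shorter regions in both MLP lists, and 1 was long in MLP vs. MLP-F with a shorter region in MLP-F vs. C. No locus was long in all 3 lists. Listed in 1 comparison only were 404 of the 611. The same share over loci of any length was not counted. Over whole lists, 39% of MLP vs. C regions overlapped MLP vs. MLP-F and 22.7% overlapped MLP-F vs. C. Of MLP vs. MLP-F regions, 42.1% overlapped MLP vs. C, as did 31.9% of MLP-F vs. C regions. The counts of loci listed once are therefore not shown to be particular to long regions.

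Listed in all 3 at any length were 11 loci, 9 of them long in both MLP lists. Those 9 were RGD1306565, Acadm, Sfmbt1, Sec23b, Nhlrc2 and 4 more. Of the 4, a pair lay on chromosome 11 as described above, where MLP-F vs. C held pieces of 582 and 884 bp with scores of 70.4 and 56.2. The rest of the 4 were on chromosome 12 at 6663353 to 6665385, with scores of 66.1 in MLP vs. MLP-F, 100.48 in MLP vs. C and 72.9 in MLP-F vs. C, and on chromosome 2 at 85256445 to 85258582, with 50.1, 210.26 and 56.4 in the same order. At these places MLP was called above MLP-F and MLP-F above C. The score was higher in MLP vs. C than in MLP vs. MLP-F at 9 of the 11, and the lowest of the 3 was that of MLP-F vs. C at 8. RGD1306565 and Acadm, tied at the ceiling, were counted as not higher. Picking loci where MLP-F was also listed above C favours a higher score in MLP vs. C, so that count is a description only.

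The 12 loci long in both MLP-F vs. C and MLP vs. C, where MLP-F and MLP were each listed above C, had edges that differed between the lists. The shared stretch was 1112 to 3770 bp, with a median of 2271 bp. The MLP-F vs. C region was the longer at 9 of 12 and the higher in score at 8 of 12. On chromosome 13 at 49579926 to 49582334 the scores were 636.44 in MLP-F vs. C and 161.23 in MLP vs. C, and on chromosome 17 at 49327264 to 49330993 they were 541.68 and 195.39. On chromosome 16 at 21133979 to 21136625 they were 536.86 and 72.1. On chromosome 3 at 129897 to 133835 they were 257.27 and 87.8. The reverse order was seen on chromosome 9 at 93084148 to 93086788 (276.03 and 1498) and on chromosome 1 at 259132417 to 259135612 (75.7 and 120.85).

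The 8 long MLP-F vs. C regions with a score of 500 or more divided by whether MLP was also listed above C. On chromosome 13 at 106661625 to 106665175 (765.47), chromosome 1 at 18997454 to 18999466 (620.07) and chromosome 12 at 4399700 to 4405096 (600.77) no MLP region was listed. At the other 5 MLP vs. C was listed, with a region of 2000 bp or more at 3 of them. On chromosome 16 at 38940445 to 38942999 the score was 692.86 in MLP-F vs. C, and 340.93 over 1170 bp in MLP vs. C. On chromosome 10 at 4020703 to 4023347 it was 521.63 in MLP-F vs. C, and 89.6 over 783 bp in MLP vs. C. The 67 long MLP-F vs. C loci found in neither MLP list had a median score of 91.7, and the 39 found in MLP vs. C one of 94.6.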

How the data were processed

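Methylated DNA was captured from sonicated liver DNA with a GST-MBD fusion protein, and the high-salt fraction was sequenced as read pairs. The authors used Bowtie to place the pairs on rn4 and MACS to call regions in 1 library against another. CASAVA is also named in the submitters' processing notes. For these tools no version is given in the sources used here. The deposited lists give a start, an end and a score for each region, and per the labels and methods the score is 10 times the −log10 of the MACS p. They give no read counts, so depth is unknown from the lists.

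Length was taken as end minus start, and starts were converted to 1-based positions. The 3 lists were read with Python 3.11.15, numpy 2.4.6, pandas 2.3.3, SciPy 1.17.1 and matplotlib 3.10.9, and the overlap and gap code was tested on simulated data. Overlap meant at least 1 bp. With 1 library per group no test between diets was made. Chromosome X and unplaced sequence were left out of the rule and are described separately. There were 0 columns of other samples.

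Named are the 10 longest and the 10 highest-scoring long regions of each list where they add a value, loci that match an entry of the study's annotation, and regions nearest the limit. Clusters and stretches outside this rule were picked with their values in view. The members and lists were chosen with earlier results of these data known. Alternatives were other length limits, a minimum score, joining regions less than 300 bp apart, all sequence of the lists, and other definitions of overlap. Columns of the authors' fold changes or FDR were not used.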

Additional observations from a re-analysis of the deposited data

Results flagged for a closer look

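Regions of 2000 bp or more also occurred on sequence that the comparisons leave out, above the 3 regions taken as the floor. On sequence not placed on a chromosome there were 23 in MLP vs. C (2.46% of 934 regions there, interval 1.65 to 3.67%), 24 in MLP vs. MLP-F (3.07% of 783, interval 2.07 to 4.52%) and 45 in MLP-F vs. C (5.01% of 898, interval 3.77 to 6.64%). These shares exceed the 0.718%, 1.32% and 0.436% of chromosomes 1 to 20. The longest of all was there too, 14245 bp in MLP-F vs. C, where the highest score of a long unplaced region was 2244.89, against 765.47 for the highest long region on chromosomes 1 to 20. On chromosome X there were 17 in MLP vs. C (1.81% of 938, interval 1.13 to 2.88%) and 12 in MLP vs. MLP-F (0.940% of 1276, interval 0.539 to 1.64%), with highest scores of 888.12 and 586.53. In MLP-F vs. C chromosome X held 3.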

How the results depend on the processing

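No result was a test, so no call could be lost. The 14 results were recomputed 60 times in all, and 31 of these values were counted as within a range of the main value. That range was not the same for all results and was wide for counts. It took in 154 long MLP-F vs. C regions over all sequence, against 106, and 281 MLP vs. MLP-F regions at a minimum score of 100, against 419. A median score of 95.5 against 113 in MLP vs. C was counted as outside. Being within it is thus no sign of a stable value. The order of the lists by number of long regions held at each length limit. At 1500 bp there were 951 long regions in MLP vs. C, 1417 in MLP vs. MLP-F and 420 in MLP-F vs. C, and at 3000 bp 36, 71 and 20. A minimum score of 100 left 141 in MLP vs. C and 47 in MLP-F vs. C. The median score was 95.5 in MLP vs. C and 122 in MLP vs. MLP-F at 1500 bp, and 124, 217 and 126 at 3000 bp in the same order of lists. The median gap was 12300 bp in MLP vs. MLP-F at 1500 bp, and 7890 bp in MLP vs. C and 3660 bp in MLP vs. MLP-F at 3000 bp. With only neighbours that score 100 or more it was 47700, 26100 and 74900 bp in the 3 lists, where fewer neighbours are counted. With a score of at least 100 required in the other list, the share of long MLP vs. C regions was 49.0% in MLP vs. MLP-F and 6.94% in MLP-F vs. C, that of long MLP vs. MLP-F regions in MLP vs. C was 22.9%, and that of long MLP-F vs. C regions in MLP vs. C was 18.9%. A reciprocal overlap of 50% gave 8.98% for long MLP vs. C regions in MLP-F vs. C and 21.7% the other way, and the centre of the region gave 11.8% for long MLP vs. C regions in MLP-F vs. C. At 3000 bp that share was 22.2%, and that of MLP vs. MLP-F regions in MLP vs. C was 29.6%. At 1500 bp 4 loci were long in all 3 lists. Among regions with scores of 100 or more and under 200, an alternative chosen after seeing the data, the share of MLP vs. C regions listed in MLP vs. MLP-F was 54.8% for long and 51.3% for shorter regions, that of MLP vs. MLP-F regions listed in MLP vs. C was 36.1% and 48.9%, that of MLP vs. C regions listed in MLP-F vs. C was 20.2% and 28.7%, and that of MLP-F vs. C regions listed in MLP vs. C was 29.2% and 46.8%. No paired analysis was possible because each group is 1 library and the result comes from no test.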
